A study of Mus musculus with 6 samples.

Results

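The nuclear genes of the mitochondrial respiratory chain were followed in PDPN+PDGFRα+ stromal cells sorted from MO5 melanomas, with and without depletion of ADAM12+ cells. Members were taken by name: every gene starting with Nduf, Uqcr, Atp5 or Cox4 to Cox8, together with Sdha, Sdhb, Sdhc, Sdhd and Cyc1, without names marked as pseudogenes (-ps) and with at least 10 reads summed over the 6 libraries. Of the 53801 genes listed, 93 had such a name and 88 had enough reads. The reads separated clearly at that limit, since the best-counted gene outside had 2 reads and the least-counted member had 20. Complex I supplied 43 members, of which 8 were Ndufaf assembly factors, complex II supplied 4, complex III 9, complex IV 16 and complex V 16. Ndufa4 and its paralogue Ndufa4l2, which carry complex I names, were described with complex IV, as was Cox7a2l.

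Complex I takes electrons from NADH and complex II takes them from succinate, and both hand them to ubiquinone. Complex III passes them on to cytochrome c and complex IV to oxygen, while complexes I, III and IV move protons across the inner mitochondrial membrane and complex V, the ATP synthase, lets them return to make ATP. Complex II is built from nuclear products alone, whereas the other complexes also hold subunits made from mitochondrial DNA.

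Ctrl and DTR mice were littermates in the C57Bl/6 background, 8 to 12 weeks old when MO5 cells, a B16 melanoma line that carries ovalbumin, were implanted under the skin, and both groups received diphtheria toxin (DT). DTR mice carried a bacterial artificial chromosome in which Adam12 sequences drive tTA and the DT receptor, so that DT reaches cells in which that transgene is active, and Ctrl mice lacked it. There were 3 libraries of each group, made from total RNA with a stranded low-input kit. The labels do not say whether a library came from 1 mouse or from several, so that p-values measure the spread between these libraries.

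Each library had 22339635 to 34271929 reads on genes. Levels are given in CPM, the reads of a gene relative to the TMM-scaled size of its library, on which 3 reads stood for 0.0872 to 0.132 CPM, a floor that covers counting error only. Adam12, the gene whose cells were to be depleted, was at 190 ± 22.1 CPM (SD, n = 3) in Ctrl and 142 ± 27.5 in DTR (SD, n = 3), with a log2 fold change of -0.42 and an adjusted p of 0.602 in edgeR's quasi-likelihood test. The 8 fibroblast markers fixed for the check (Pdgfra, Pdpn, Col1a1, Col1a2, Col3a1, Dcn, Lum and Fap) were all detected and summed to 5130 to 13600 CPM in Ctrl and 5540 to 14000 CPM in DTR. The 8 pigment-cell markers (Pmel, Tyrp1, Dct, Tyr, Mlana, Mitf, Sox10 and Slc45a2) were also all detected and summed to more, 16300 to 19000 CPM in Ctrl and 15200 to 18000 CPM in DTR, although the gate was for stromal cells. Levels below are therefore those of the sorted material as a whole. All 8 fibroblast markers had a higher mean in DTR, with a median log2 fold change of 0.42 (edgeR, lowest adjusted p 0.64). Of the pigment-cell markers 6 were lower and 2 higher, with a median of -0.1 (edgeR, lowest adjusted p 0.602). The part of these shifts in the differences below was not tested. In bulk RNA, fewer cells of a type and less RNA per cell cannot be told apart.

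Respiratory chain transcripts were abundant and differed little between DTR and Ctrl. The 88 members held 0.998% ± 0.0715 (SD, n = 3) of the counted reads in Ctrl and 0.982% ± 0.0574 in DTR (SD, n = 3). Of the 85 members with enough reads for the test, 49 had a lower and 36 a higher mean in DTR, and their median log2 fold change was -0.02, beside -0.0029 for the 15133 genes tested. None of the 85 had an adjusted p under 0.05 (edgeR, quasi-likelihood, Benjamini-Hochberg adjusted, lowest 0.602). Of all genes tested, 0.0% had one. DESeq2's Wald test gave members a lowest adjusted p of 0.755, while it called 31 of 20360 genes, or 0.152%. At an unadjusted p under 0.05 stood 3 members, Ndufa2, Ndufv3 and Atp5h, which is 3.53% of those tested against 7.92% of all genes. All 3 were lower in DTR, a direction that 4.11% of all genes took at that p, while 3.81% of all genes and none of the members were higher. Ctrl and DTR libraries did not overlap for 5 members, or 5.88%, against 14.5% of all genes tested. These were Ndufa2, Ndufv3, Ndufb8 and Atp5h, lower in DTR as 8.19% of all genes were, and Ndufab1, higher in DTR as 6.3% were.

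The split into lower and higher members depended on single libraries and on the scaling. Without DTR 3, 37 members were lower and 48 higher, and without Ctrl 3, 41 were lower and 44 higher. Without Ctrl 1, as without DTR 2, 58 were lower and 27 higher, and the split was 55 to 30 without DTR 1 and 52 to 33 without Ctrl 2. Scaling by library size alone gave 42 lower and 43 higher.

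The intervals of the differences were narrow. The 95% interval of the log2 fold change lay wholly between -0.5 and 0.5 for 69 of the 85 members, or 81.2%, against 38.1% of all genes tested. A log2 difference of 0.5 is a 41.4% rise. The members' median within-group SD on the log2 scale was 0.118, against 0.229 for all genes tested, and their median total was 12300 reads over the 6 libraries, against 2640. All 4 complex II genes and all 9 complex III genes had intervals inside those limits, as did 35 of 43 in complex I, 10 of 13 in complex IV and 11 of 16 in complex V. The widest intervals belonged to Ndufa4l2, from -1.66 to 0.40, and to Cox7a1, from -0.28 to 1.20.

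**Figure D1:**
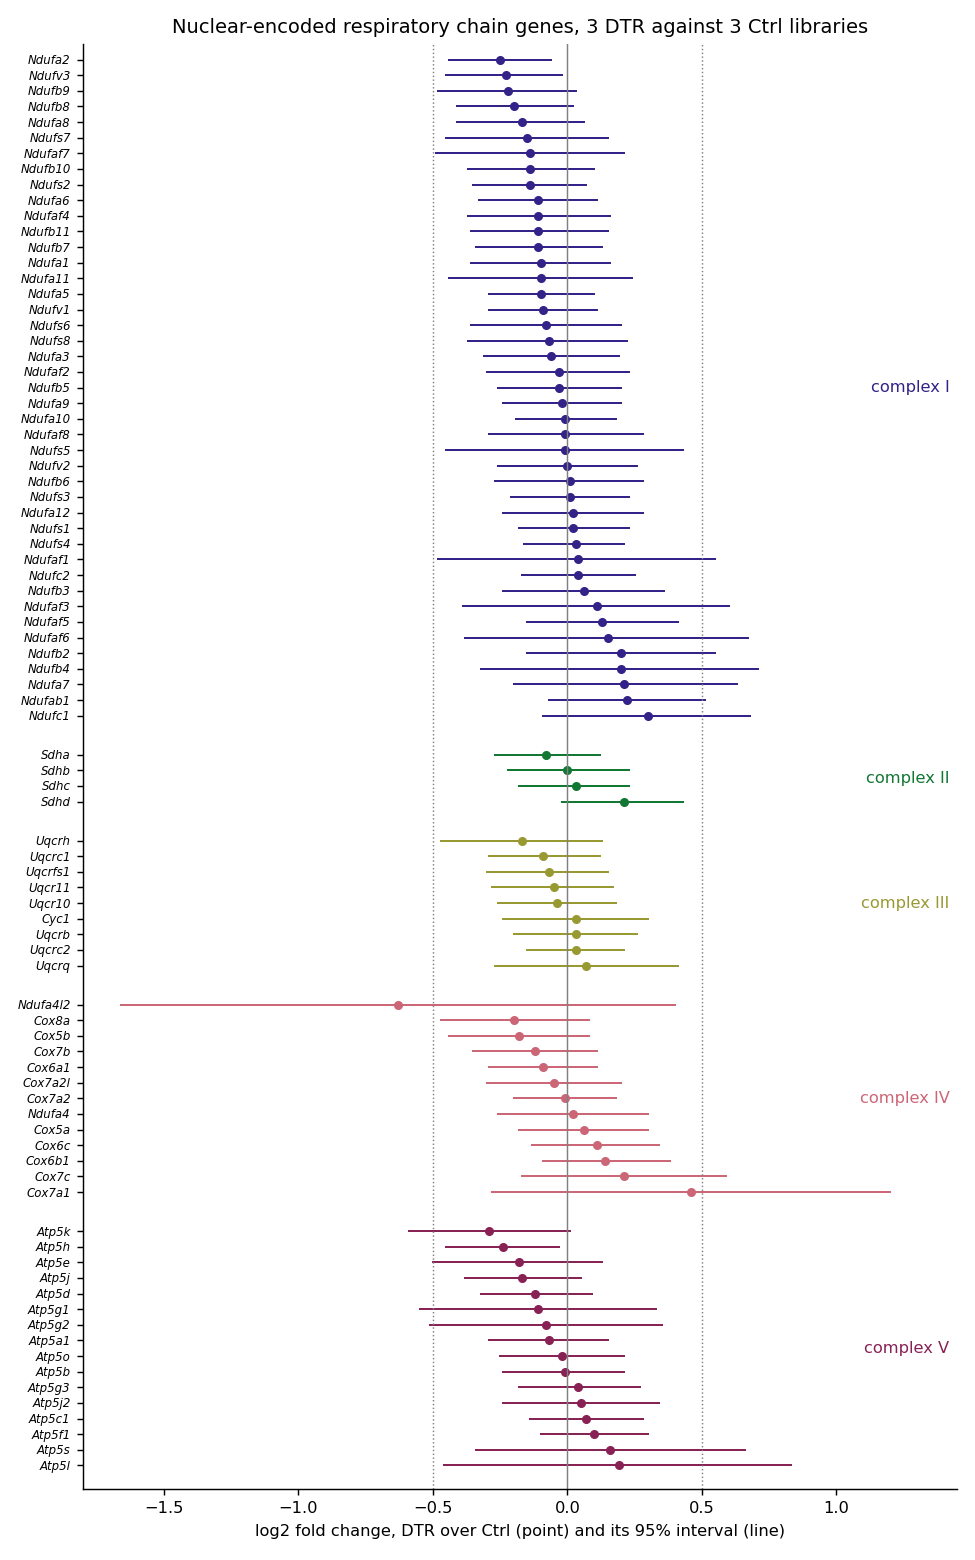
Log2 fold change of DTR over Ctrl (points) with the 95% interval from edgeR's quasi-likelihood fit (lines) for the 85 members tested, grouped by complex and ordered by value. Dotted lines mark -0.5 and 0.5, which 69 of the 85 intervals do not cross, and the 2 points farthest from 0 are Ndufa4l2 at -0.63 and Cox7a1 at 0.46.

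The members' level varied from library to library within each group. Their summed level was 9490 CPM in Ctrl 1, 10400 in Ctrl 2 and 10400 in Ctrl 3, and 10200 in DTR 1, 10000 in DTR 2 and 9020 in DTR 3. Ctrl 1 and DTR 3 were the lowest library of their groups, and the groups overlapped. Of the 85 members, 46 had their lowest value of the 6 libraries in DTR 3 and 16 in Ctrl 1, whereas 1 member was lowest in DTR 1. The median member stood 0.11 below its own mean over the libraries in DTR 3 on the log2 scale (a deviation of -0.11) and at -0.05 in Ctrl 1, and between 0.02 and 0.06 in the other libraries. Ctrl 1 and DTR 3 were also the lowest 2 libraries in each of the 5 complexes, and the median deviation in DTR 3 ran from -0.17 in complex V to -0.07 in complex IV. Ctrl 1 and DTR 3 were also the libraries with the most fibroblast marker signal, 13600 and 14000 CPM, against 5130 to 10800 CPM in the other 4. DTR 3 had the fewest reads and, at 15200 CPM, the lowest pigment-cell sum. The part of cell mixture or depth in these differences was not tested.

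**Figure D2:**
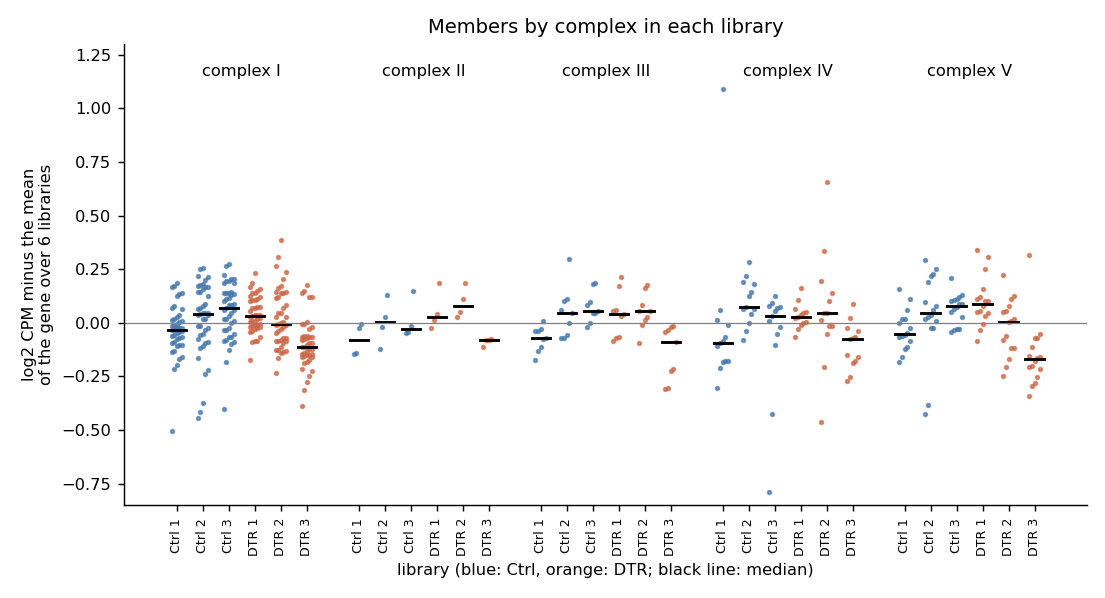
Log2 CPM of each tested member minus its own mean over the 6 libraries, by complex and library, with Ctrl in blue, DTR in orange and the median as a black line. In each complex DTR 3 has a median below 0, and Ctrl 2 and DTR 1 have medians above 0.

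**Figure D3:**
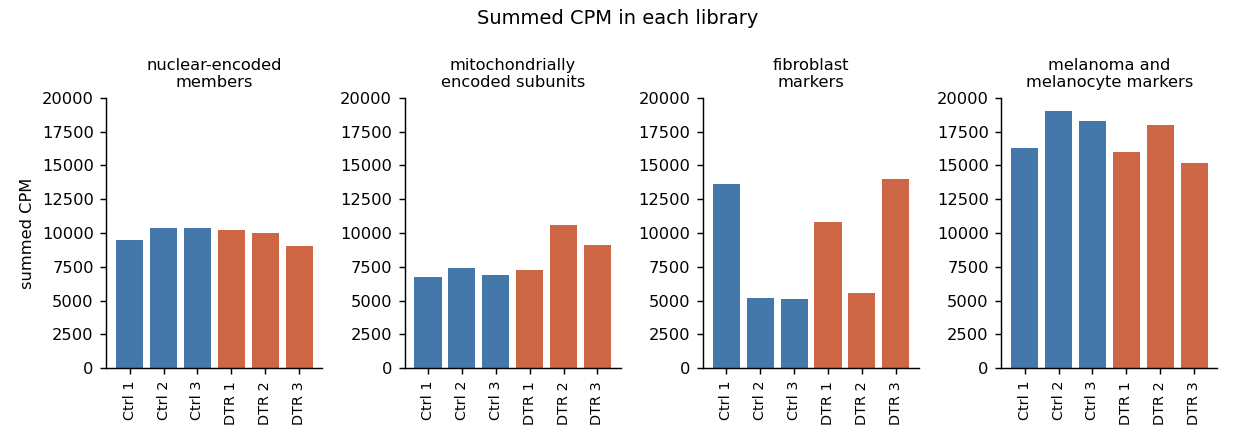
Summed CPM in each library of the 88 nuclear-encoded members, the 13 mitochondrially encoded subunits, the 8 fibroblast markers and the 8 pigment-cell markers, with Ctrl in blue and DTR in orange. The members stay between 9020 and 10400 CPM, while the fibroblast markers range from 5130 to 14000 CPM.

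Members differed far more from each other than between groups. Mean levels of the 85 tested members over the 6 libraries ran from 2.63 CPM for Ndufa4l2 to 1150 CPM for Atp5a1, a 437-fold range, with a median of 74.6 CPM. Per kilobase of annotated exon, Atp5a1 led with 368 CPM per kb and the median was 44.9. The median per kb was 31.6 in complex I, 72.2 in complex II, 76.6 in complex III, 74.7 in complex IV and 73.5 in complex V. Atp5l was lowest per kb, at 0.563 CPM per kb, and at 3.63 CPM it was also the lowest of complex V before division by length. Exon lengths were those of all annotated transcripts of a gene combined. The feature type counted is not given in the sources used here, and reads from introns may be included. Values per kb therefore compare different genes only roughly.

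Complex I contributed 26 members lower and 17 higher in DTR, with a median log2 fold change of -0.03. Its 7 nuclear core subunits, among them those that carry the flavin and the iron-sulfur clusters, lay between -0.15 for Ndufs7 and 0.02 for Ndufs1. The 28 accessory subunits, which surround the core, had a median of -0.05, and the 8 assembly factors had one of 0.01.

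Ndufa2, a small accessory subunit (chr18:36742332-36744557 of GRCm38, minus strand), had the lowest p among members. Its CPM were 69.5, 71.2 and 67.8 in Ctrl 1 to Ctrl 3 and 60.1, 58.3 and 57.0 in DTR 1 to DTR 3. Each DTR library was below each Ctrl library, and the values within a group lay close together (69.5 ± 1.70 and 58.5 ± 1.57, SD, n = 3). The log2 fold change was -0.25 (standard error 0.0823, 0.84-fold), with an adjusted p of 0.602 in edgeR's test and p = 0.1 in a two-sided exact permutation test, the smallest p that 3 against 3 libraries allow. Over the 14 alternative settings its log2 fold change stayed between -0.26 and -0.22, with adjusted p from 0.454 to 0.852.

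Ndufv3, an accessory subunit at the NADH-oxidising tip (chr17:31520115-31531331, plus strand), had the next lowest p within complex I. It was at 103, 103 and 92.9 CPM in the Ctrl libraries and at 90.1, 86.7 and 77.3 CPM in the DTR libraries. The lowest Ctrl library, Ctrl 3, and the highest DTR library, DTR 1, came close, but the groups did not overlap. The log2 fold change was -0.23 (standard error 0.0939, edgeR adjusted p 0.604, exact permutation p = 0.1).

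Ndufb8, which sits in the membrane arm, was the other complex I member with every DTR library below Ctrl. It was at 70.1, 70.3 and 73.5 CPM in Ctrl and at 66.9, 62.3 and 57.2 CPM in DTR, at a log2 fold change of -0.20 (standard error 0.0927, edgeR adjusted p 0.63). Of its genomic span 62.0% overlapped other genes of the same strand, which makes its count uncertain. Ndufab1, the mitochondrial acyl carrier protein that also serves as a complex I subunit, was at 14.9, 13.0 and 14.3 CPM in Ctrl and at 15.9, 16.7 and 16.5 CPM in DTR. All 3 DTR libraries were above Ctrl for this gene, giving a log2 fold change of 0.22 (standard error 0.125, edgeR adjusted p 0.662). Ndufb8 and Ndufab1 were named because their groups did not overlap, after their values were seen.

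The highest complex I value was that of Ndufc1, a small membrane-arm subunit, at 42.4, 34.9 and 49.9 CPM in Ctrl and 43.9, 60.8 and 51.6 CPM in DTR. The groups overlapped, since DTR 1 was below Ctrl 3, and the log2 fold change of 0.30 had an interval from -0.09 to 0.68. That value was 0.17 without Ctrl 2 or DTR 2 and 0.43 without Ctrl 3. Ndufa5 was the most abundant complex I member per kb, at 140 CPM per kb. It was at 139, 151 and 159 CPM in Ctrl and at 144, 144 and 132 CPM in DTR, overlapping groups giving a log2 fold change of -0.10 (standard error 0.0856). Ndufs1, the large iron-sulfur subunit, had the highest mean in complex I, 218 CPM, and a log2 fold change of 0.02 with an interval from -0.18 to 0.23.

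**Figure D4:**
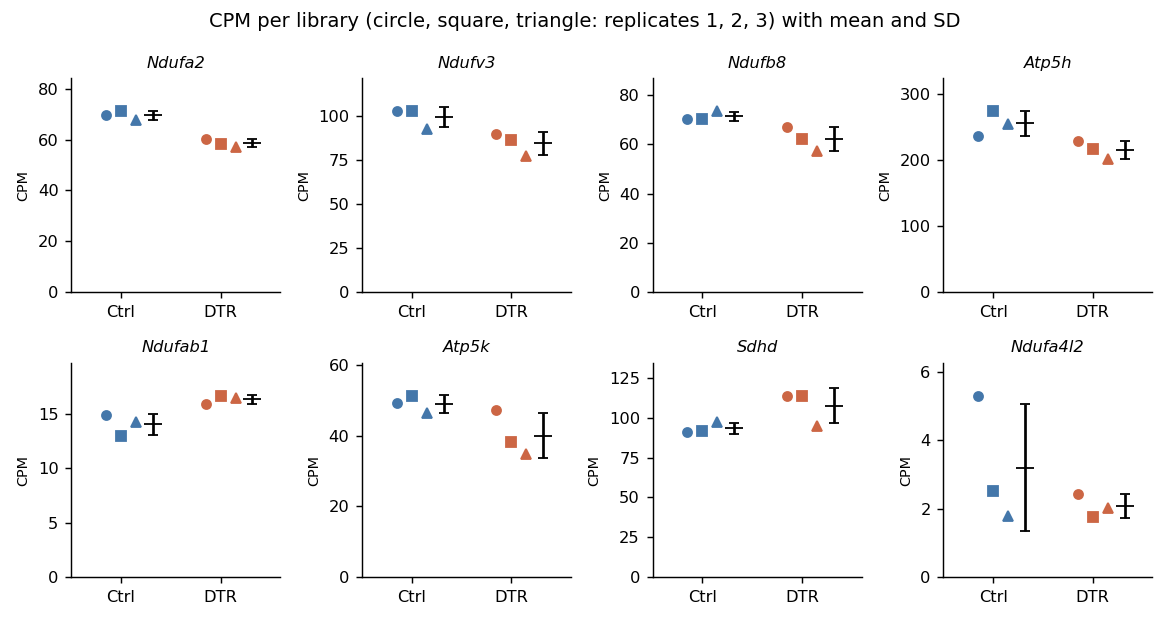
CPM of 8 members in each library, with circles, squares and triangles for replicates 1, 2 and 3 and the mean with SD (n = 3) in black. The groups do not overlap for Ndufa2, Ndufv3, Ndufb8, Atp5h and Ndufab1, and they overlap for Atp5k, Sdhd and Ndufa4l2.

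Complex II, succinate dehydrogenase, had a median log2 fold change of 0.02 over its 4 genes. Sdhd, a membrane anchor, was highest. It was at 90.9, 92.0 and 97.3 CPM in Ctrl and at 114, 114 and 95.1 CPM in DTR. DTR 1 and DTR 2 were above all Ctrl libraries and DTR 3 was below Ctrl 3, giving a log2 fold change of 0.21 (standard error 0.0973, edgeR adjusted p 0.631, exact permutation p = 0.2). Sdha, the flavoprotein that oxidises succinate, was at 257, 283 and 256 CPM in Ctrl and 254, 263 and 239 CPM in DTR. Its groups overlapped at a log2 fold change of -0.08 (interval -0.27 to 0.12). Sdhb, the iron-sulfur subunit and the most abundant of the 4 per kb, was at 340 ± 34.7 CPM in Ctrl and 341 ± 17.0 in DTR (SD, n = 3). Sdhc, the other anchor, was at 68.4 ± 1.89 and 69.8 ± 4.56 CPM (SD, n = 3), with an interval from -0.18 to 0.23.

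Complex III, the cytochrome bc1 complex, had 5 lower and 4 higher members and a median of -0.04. Uqcrh, the hinge protein, was lowest. It was at 155, 196 and 159 CPM in Ctrl and at 166, 158 and 129 CPM in DTR, giving a log2 fold change of -0.17 (standard error 0.129). The groups overlapped, and Ctrl 2 was high and DTR 3 low: the value was -0.06 without Ctrl 2 and -0.07 without DTR 3. Uqcrq was highest at 0.07, from 123, 150 and 137 CPM in Ctrl and 161, 157 and 112 CPM in DTR. DTR 3 held the lowest and DTR 1 the highest value of the 6, and the log2 fold change was 0.22 without DTR 3 and -0.01 without DTR 1. The redox subunits Cyc1 (cytochrome c1) and Uqcrfs1 (the Rieske protein) had log2 fold changes of 0.03 and -0.07, with intervals from -0.24 to 0.30 and from -0.30 to 0.15. Uqcrb, the most abundant per kb at 193 CPM per kb, had one of 0.03. It shares 25.5% of its 50-base transcript words with other genes, so part of its reads could belong elsewhere.

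Complex IV, cytochrome c oxidase, had 7 lower and 6 higher members among 13 tested and a median of -0.01. Cox7b was the most abundant per kb, at 258 CPM per kb. It was at 293, 355 and 333 CPM in Ctrl and at 311, 310 and 280 CPM in DTR, overlapping groups giving a log2 fold change of -0.12 (standard error 0.0991), which was -0.06 without Ctrl 2 and -0.20 without Ctrl 1. Cox8a, the common form of subunit 8, had a log2 fold change of -0.20 with an interval from -0.47 to 0.08, and was at -0.10 without Ctrl 2 and -0.11 without DTR 3. Cox6a1 and Cox6b1, common forms of subunits 6a and 6b, had values of -0.09 and 0.14, and Ndufa4 had one of 0.02. With each library left out they ran from -0.14 to -0.04, from 0.08 to 0.22 and from -0.06 to 0.11.

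Several complex IV subunits exist as a common form and as a form known from muscle, testis or low oxygen, and their ratio within a library does not depend on how libraries are scaled. Ndufa4l2, a paralogue of Ndufa4 known to be induced by hypoxia, was at 5.30, 2.51 and 1.79 CPM in Ctrl and at 2.44, 1.74 and 2.03 CPM in DTR. Ctrl 1 was high and the other 5 libraries lay together. The log2 fold change of -0.63 (standard error 0.446, edgeR adjusted p 0.72) became -0.05 without Ctrl 1. There were 5.86, 2.24 and 1.71 reads of Ndufa4l2 per 100 reads of Ndufa4 in Ctrl, and 2.12, 1.63 and 2.24 in DTR (difference of log2 ratios -0.51, two-sided exact permutation test, p = 0.5). Cox7a1, the heart and muscle form of subunit 7a, was at 5.02, 6.19 and 3.09 CPM in Ctrl and at 5.52, 8.59 and 5.51 CPM in DTR. The groups overlapped, and its ratio to the common form Cox7a2 had a difference of 0.48 on the log2 scale (two-sided exact permutation test, p = 0.4), which was 0.17 without Ctrl 3 and 0.28 without DTR 2. The log2 fold change of Cox7a1, 0.46 in the reported fit, ran from 0.21 without DTR 2 to 0.69 without Ctrl 2. Cox7a2 itself was at 114 ± 5.93 and 113 ± 4.04 CPM (SD, n = 3).

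Other tissue forms were near or under the floor. Cox6a2, the heart and muscle form of subunit 6a, had 5, 4 and 7 reads in Ctrl and 2, 3 and 0 in DTR. Cox6b2, the testis form of subunit 6b, had 0, 1 and 0 reads in Ctrl and 5, 5 and 9 in DTR. Each of the pair met the minimum of 10 reads only through the group in which it was higher, so that their difference is a description with no test. Of the 4 isoform ratios computed, tests are given for those of Ndufa4l2 and Cox7a1 alone. Cox4i2, the subunit 4 form known from lung and low oxygen, had 29 reads in all. Cox8b, the muscle form of subunit 8, and Cox7b2, a testis form of subunit 7b, had 2 reads each, and Cox8c, a testis form of subunit 8, had none, so that these 3 are not among the members. The ratios of Cox4i2 to Cox4i1 and of Cox8b to Cox8a were not computed, since a gene of each pair had under 10 reads. Of 8 skeletal muscle markers, Myh4 and Myh2 were at 0 in every library, and the 8 together summed to 4.1 to 5.37 CPM in Ctrl and 3.92 to 4.97 CPM in DTR.

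Cox4i1, the common form of subunit 4, and the complex I subunit Ndufa13 were at 0 in every library, and that is no measure of their transcripts. The gene span of Cox4i1 (chr8:120668222-120674207, plus strand) lies inside that of Gm20388, which is annotated over 4434882 bases of the same strand and had 1945 to 3080 reads per library. Ndufa13 (chr8:69894180-69902558, minus strand) lies inside the span of Yjefn3, with 17 to 71 reads. In both cases no exonic base of the smaller gene is shared with an exon of another gene of its strand (0.0%). All 465 protein-coding genes that lie wholly inside the span of another gene of the same strand were at 0 in every library, against 23.7% of the 17745 protein-coding genes with no such overlap. Counts of members whose spans overlap in part are uncertain for the same reason: Ndufb2 (37.2% of the span), Ndufb8 (62.0%) and Ndufb9 (62.9%). In addition, 19 members share over 10% of their 50-base transcript words with other genes, up to 64.1% in Ndufaf2.

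Complex V, the ATP synthase, held the most abundant members and had 10 lower and 6 higher, with a median of -0.05. Atp5a1 and Atp5b, the alpha and catalytic beta subunits of its F1 head, were at means of 1180 ± 71.3 and 1110 ± 50.2 CPM in Ctrl and 1130 ± 80.7 and 1100 ± 95.9 CPM in DTR (SD, n = 3). Atp5a1 was at 1110, 1200 and 1240 CPM in Ctrl and 1190, 1160 and 1030 CPM in DTR. Its groups overlapped at a log2 fold change of -0.07 (interval -0.29 to 0.15).

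Atp5h, subunit d of the peripheral stalk (chr11:115415689-115419962, minus strand), was at 237, 274 and 255 CPM in Ctrl and at 229, 216 and 202 CPM in DTR. The groups did not overlap, with Ctrl 1 and DTR 1 closest to each other. The log2 fold change was -0.24 (standard error 0.0908, edgeR adjusted p 0.602, exact permutation p = 0.1), and it stayed between -0.29 and -0.19 over the alternatives. It shares 19.9% of its transcript words with other genes. Atp5k, membrane subunit e, had the lowest value in the complex, -0.29 (standard error 0.13, edgeR adjusted p 0.63). It was at 49.2, 51.4 and 46.4 CPM in Ctrl and at 47.3, 38.2 and 34.8 CPM in DTR. DTR 1 lay among the Ctrl libraries and the other two DTR libraries below them. Atp5l, membrane subunit g, was highest at 0.19, but at 3.39 ± 0.661 and 3.87 ± 0.574 CPM (SD, n = 3) its interval ran from -0.46 to 0.83. The value was 0.04 without Ctrl 2 and 0.07 without DTR 3. The 3 genes for subunit c of the proton-carrying ring, Atp5g1, Atp5g2 and Atp5g3, had log2 fold changes of -0.11, -0.08 and 0.04.

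The promoters of the members were searched for letters that the naming rule did not use. Many respiratory chain promoters are known to bind NRF1 and GABPA, regulators of nuclear genes for mitochondria. The 250 bases upstream of the start were available from RefSeq (GRCm38.p6) for 73 of the 88 members. On either strand, CGCNTGCGC, the letters searched for NRF1, was found in 15 of them (20.5%), against 8.0% of 17492 protein-coding genes. CCGGAAG, searched for GABPA, was in 14 (19.2%), against 10.2%. The CREB letters TGACGTCA were in 5.48% of the members against 2.2% of all promoters. For the core of the HIF site, ACGTG, the shares were 20.5% and 20.0%. The YY1 letters AAGATGG stood in 1.37% of the members and 4.77% of all, and those of a TATA box, TATAAA, in 6.85% and 13.7%. A match is a description of letters and not a measured site.

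Atp5h, Atp5l, Cox6a1 and Sdhd had both the NRF1 and the GABPA letters, and their upstream 250 bases are printed for that reason, 5′ to 3′ on the strand of the gene, with matches on either strand in capitals. The 2 sets of letters do not overlap each other in these promoters. All 4 genes lie on the minus strand of GRCm38, with these bases at chr11:115419920-115420169 for Atp5h, chr9:44920743-44920992 for Atp5l, chr5:115348959-115349208 for Cox6a1 and chr9:50603850-50604099 for Sdhd.
Atp5h: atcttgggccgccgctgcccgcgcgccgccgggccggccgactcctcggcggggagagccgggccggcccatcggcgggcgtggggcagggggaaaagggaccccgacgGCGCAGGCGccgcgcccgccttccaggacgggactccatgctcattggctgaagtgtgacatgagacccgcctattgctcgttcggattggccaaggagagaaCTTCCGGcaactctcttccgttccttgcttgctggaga
Atp5l: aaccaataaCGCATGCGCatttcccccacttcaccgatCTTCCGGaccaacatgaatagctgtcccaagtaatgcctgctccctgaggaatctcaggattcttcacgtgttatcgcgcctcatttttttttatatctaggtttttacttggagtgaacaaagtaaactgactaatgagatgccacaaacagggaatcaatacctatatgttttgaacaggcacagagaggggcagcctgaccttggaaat
Cox6a1: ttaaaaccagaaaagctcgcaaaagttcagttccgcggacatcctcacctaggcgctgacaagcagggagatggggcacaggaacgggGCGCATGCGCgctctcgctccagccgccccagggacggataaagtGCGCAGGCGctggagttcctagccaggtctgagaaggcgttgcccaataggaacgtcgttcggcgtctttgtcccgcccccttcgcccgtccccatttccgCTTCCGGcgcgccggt
Sdhd: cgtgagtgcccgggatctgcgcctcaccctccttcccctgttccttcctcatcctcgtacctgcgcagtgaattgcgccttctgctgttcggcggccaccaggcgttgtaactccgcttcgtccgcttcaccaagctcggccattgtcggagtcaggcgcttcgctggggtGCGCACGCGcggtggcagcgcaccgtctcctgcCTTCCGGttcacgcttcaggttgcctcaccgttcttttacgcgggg
With these letters in common, the 4 genes had log2 fold changes of -0.24 for Atp5h, 0.19 for Atp5l, -0.09 for Cox6a1 and 0.21 for Sdhd, and the edgeR adjusted p of each was above 0.05.

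The factors themselves and other genes of the pathway were also near 0. Among 14 regulators, 0 had an unadjusted p under 0.05, and the median log2 fold change was 0.02, from -0.27 for Polrmt, the mitochondrial RNA polymerase, to 0.37 for Tfb2m, its transcription factor. Nrf1 was at 39.8 ± 3.87 CPM in Ctrl and 42.2 ± 3.37 in DTR, and Gabpa at 78.8 ± 5.43 and 77.4 ± 1.57 (SD, n = 3). Ppargc1a, a coactivator of mitochondrial genes, was at 324, 371 and 279 CPM in Ctrl and at 297, 447 and 308 CPM in DTR, overlapping groups. The 42 tested assembly factors outside the naming rule had a median of -0.02, from -0.31 for Higd1a to 0.45 for Sco2. Of them 1 had an unadjusted p under 0.05 (Higd1a, lower), or 2.38%, against 7.92% of all genes. The 14 genes for cytochrome c and ubiquinone synthesis had a median of -0.03, from -0.23 for Coq6 to 0.24 for Pdss2. The 13 genes of the tricarboxylic acid cycle outside complex II had one of 0.02, and the highest value was 0.18, for Dld. In these last 2 lists, as among the regulators, 0 genes had an unadjusted p under 0.05, against the same 7.92% of all genes.

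Mitochondrial ribosomal protein genes, which are also nuclear and numerous, had a median of -0.06 over 75 tested, with 56 lower and 19 higher. Of them 3 had an unadjusted p under 0.05, all lower, or 4.0%, near the 4.11% of all genes. Cytosolic ribosomal protein genes had a median of -0.13 over 81, with 65 lower and 16 higher. Of them 13 had an unadjusted p under 0.05, all lower, or 16.0%, against 4.11% of all genes. Their median deviation was -0.14 in DTR 2 and -0.16 in DTR 3, while DTR 1, at 0.09, lay within the Ctrl range of 0.02 to 0.12.

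The subunits encoded in mitochondrial DNA, the partners of the members in every complex but II, had other values. Of 13 such genes 7 could be tested, and all 7 had a higher mean in DTR, with a median log2 fold change of 0.37, from 0.26 for mt-Nd5 to 0.43 for mt-Nd1. The unadjusted p was under 0.05 for 6 of them, all higher, against 3.81% of all genes, and the lowest adjusted p was 0.602 (edgeR). All 7 had their highest value in DTR 2 and the next in DTR 3, so that they do not stand for 7 separate observations. In fits chosen after seeing the data, all 7 were higher with each library left out. The median was then 0.25 without DTR 2 and 0.53 without DTR 1, and the number at that p was 1 without DTR 2, 2 without Ctrl 1 and 2 without Ctrl 3. The other 6 genes, mt-Co2, mt-Co3, mt-Atp6, mt-Atp8, mt-Nd3 and mt-Nd4l, were at 0 or within 0.129 CPM in every library and could not be compared. These values are not read as absence of the transcripts. The sum over all 13 came from the 7 tested genes but for these traces. It was 6740, 7410 and 6870 CPM in Ctrl and 7250, 10600 and 9100 CPM in DTR. DTR 2 and DTR 3 were high, and DTR 1 lay between Ctrl 2 and Ctrl 3. In the same libraries the nuclear members were at 10000 CPM in DTR 2 and at their lowest, 9020 CPM, in DTR 3. The difference between the nuclear and the mitochondrial list was not tested.

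Genes known to respond to low oxygen, a list that shares Ndufa4l2, Cox4i2 and Higd1a with those above, had 9 of 9 tested genes lower in DTR and a median of -0.34. The lowest was Car9, carbonic anhydrase 9, at -1.23 (edgeR adjusted p 0.602), and the highest Slc2a1, a glucose transporter, at -0.17. Car9 was at 65.8, 63.9 and 38.1 CPM in Ctrl and 24.7, 26.3 and 20.4 CPM in DTR. Of the 9, 5 had an unadjusted p under 0.05, all lower, against 4.11% of all genes. The list was written with earlier results of these data known, and the paper reports Car9 as lower in these cells. The count is therefore a description and no independent evidence. The median deviation of these genes from their means was 0.53 in Ctrl 1 against 0.08 and 0.04 in the other Ctrl libraries, and -0.41 in DTR 3 against -0.09 and -0.10 in the other DTR libraries. With libraries left out, an alternative chosen after seeing the data, the median was -0.22 without Ctrl 1, with 8 of 9 lower and 2 at that p, and -0.26 without DTR 3, with 9 of 9 lower and 2 at that p. The 8 mural cell markers, with log2 fold changes of -1.02 for Cspg4 and -1.31 for Acta2 and 5 of 6 tested markers lower in DTR, summed to 23.8 to 51.7 CPM in Ctrl and 16.3 to 22.4 CPM in DTR, with Ctrl 1 highest, the library in which Ndufa4l2 was high. Their part in the Ndufa4l2 value was not tested.

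**Figure D5:**
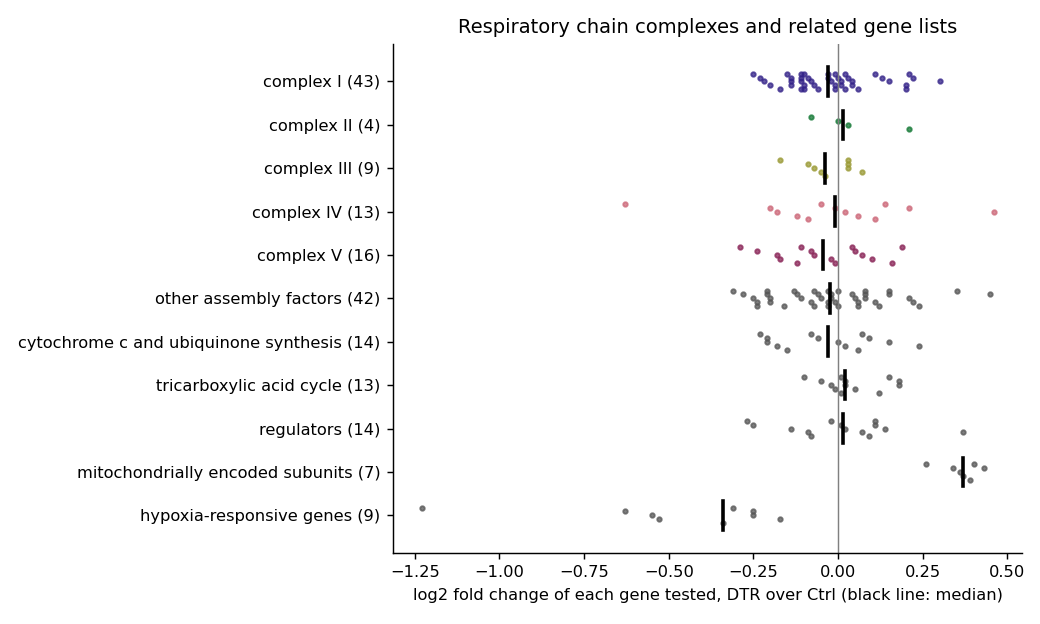
Log2 fold change of DTR over Ctrl for each gene tested in the 5 complexes and in 6 related lists, with the number of genes in brackets and the median as a black line. The medians of the complexes lie between -0.05 and 0.02, that of the mitochondrially encoded subunits at 0.37 and that of the hypoxia-responsive genes at -0.34.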

How the data were processed

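RNA of PDPN+PDGFRα+ cells from MO5 tumors was analysed in 3 Ctrl and 3 DTR libraries, with groups from the genotype labels. Per their methods, the authors trimmed reads with cutadapt 3.4, aligned them to GRCm38 with STAR 2.7.3a and counted reads per gene with featureCounts 2.0.1, using strand. The deposited values used here are these raw counts, not normalized. The feature type counted is not given in the sources used here. The table also holds the authors' normalized values, group means, fold changes, dispersions and p-values from DESeq2, which were not used. Genes without a name in the table numbered 27987 and stayed in the tests.

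Totals ran from 22339635 to 34271929 counts per library. Low genes were removed by filterByExpr of edgeR (minimum count 10, minimum total 15), which left 15133. Counts were scaled with TMM and compared by edgeR's quasi-likelihood test (two-sided, no covariates, Benjamini-Hochberg adjustment over all genes tested, threshold 0.05). The common dispersion was 0.0662. Standard errors came from the quasi-likelihood F, and 95% intervals from the t distribution of the fit. Single values were also compared by exact permutation of log2(CPM + 0.1) over the libraries, two-sided, with a smallest p of 0.1. Ratios of isoforms used counts plus 1. R 4.3.3, edgeR 4.0.16, DESeq2 1.42.0, Python 3.11.15, pandas 2.3.3, scipy 1.17.1 and matplotlib 3.10.9 were used. Spans, exon lengths, shared 50-base words and overlaps came from GENCODE M21 (GRCm38), and promoters from RefSeq.

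Members, lists and markers were chosen with earlier results of these data known. Named are the lowest and highest log2 fold change of each complex, members with an unadjusted p under 0.05, the most abundant per exonic kb, the isoform genes, the Sdh genes, Cyc1, Uqcrfs1 and Atp5a1, and the lowest and highest of other lists; others were named after their values were seen, and 1 gene is not reported here. Alternatives were other size factors, library size alone, other count filters, DESeq2, robust moderation, a replicate block, a loess offset on genomic span and each library left out. Tested on simulated counts for this comparison over 14727 genes, the quasi-likelihood step called 49 of 97 genes changed by 1 and 70 of 95 changed by 2 on the log2 scale, with 14 of 14535 unchanged genes called.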

Additional observations from a re-analysis of the deposited data

How the results depend on the processing

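No member had an adjusted p under 0.05 under any of the 14 alternatives, and the lowest adjusted p of a member ranged from 0.443 to 0.852 over them (edgeR or DESeq2). The number of members with an unadjusted p under 0.05, 3 in the reported fit, ranged from 0 to 7 with each library left out, with 0 without Ctrl 2, 7 without DTR 1 and 1 without DTR 2. Of all genes, 5.21%, 10.2% and 7.59% passed in these 3 fits, and the 7 members are 8.24% of those tested. The median of complex III, -0.04 as reported, ranged from -0.08 to 0.05 with each library left out, and was 0.05 without Ctrl 3. In the same fits the other medians also crossed 0, from -0.06 to 0.02 over all members, -0.06 to 0.01 in complex I, -0.02 to 0.06 in complex II, -0.05 to 0.03 in complex IV and -0.09 to 0.03 in complex V. With 5 counts added per library, the difference between DTR and Ctrl in the log2 ratio of Cox6a2 to Cox6a1 was -0.74 and that of Cox6b2 to Cox6b1 was 0.75, in place of -1.53 and 2.17 with 1 count (descriptions with no test), as more added counts shrink a ratio of few reads. The offset on genomic span gave 57 members lower and 28 higher at a median of all genes of -0.068. Of the members with small values, Cox7a2, Cyc1, Ndufa4, Sdhb, Sdhc, Uqcrb, Uqcrfs1 and Uqcrq changed sign in 1 to 5 of the 14 alternatives, and the other tested members named by the rule kept theirs. Other members given in the text were not compared over the alternatives.

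With the replicate number as a block, the unadjusted p was under 0.05 for 4 members (4.71%, against 8.4% of all genes) and the adjusted p for 0 (lowest 0.575), and the members' median was -0.03. Libraries with the same number did not deviate together throughout (correlations of 0.114, 0.132 and -0.042). With 3 libraries a group, these values cannot tell whether the numbers pair the libraries.

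With 3 libraries a group, the members with few reads, such as Ndufa4l2 (425 in all), Atp5l (596), Cox7a1 (941) and Ndufb4 (943), had 95% intervals that reached beyond 0.5 or -0.5, and smaller differences were not detectable for them.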
